A study of Rattus norvegicus with 6 samples.

Results

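The platelet-derived growth factor (PDGF) family in the deposited gene table consists of 7 genes, chosen by name out of 32883 genes, namely the ligand genes Pdgfa, Pdgfb, Pdgfc and Pdgfd, the receptor genes Pdgfra and Pdgfrb, and the receptor-like gene Pdgfrl. PDGF chains form dimers that bring receptor tyrosine kinases together at the cell surface, and the receptors then phosphorylate one another and recruit adaptors of the RAS-ERK, PI3K-AKT and phospholipase C routes. PDGFRα binds A, B and C chains, whereas PDGFRβ binds B and D chains. In the brain, PDGFRα marks oligodendrocyte precursor cells (OPCs), PDGF-AA is their classical mitogen, and the receptor is lost as the cells differentiate. PDGFRβ marks pericytes and other mural cells.

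Primary OPCs of Sprague Dawley rats were prepared from the cortices of 2 newborn (P0) pups, grown as a mixed culture for 7 days and shaken off, and then kept in Neurobasal with B27 and N2. Cells received 5 µM ZJU-37, an inhibitor of the kinase RIPK1, or an equal volume of the solvent DMSO for 36 h according to the labels, and poly-A RNA of 3 libraries per group was sequenced. The study's methods give a wider range of pup ages and a shorter treatment. They call the libraries biological repeats, whereas the study's legend calls them plate wells. The p-values below therefore measure the spread between libraries, which may be technical. The comparison asks how inhibition of RIPK1 changes PDGF receptor and ligand mRNA in OPCs.

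Library totals ran from 13935865 to 18754529 counts with DMSO and from 17769843 to 24097927 with ZJU-37, and 3 counts equal 0.124 CPM in the deepest library and 0.215 CPM in the shallowest, counting error alone being covered by this limit. CPM are counts scaled to one common library size. They are given on the scale of the TMM normalization of edgeR, and levels of different genes are compared only as FPKM, the authors' length-scaled values. OPC marker genes were present, with 12 of 13 listed genes found and Neu4 alone at 0 counts. However, 3 of the 11 tested ones rose (Cspg4, Olig1 and Ptprz1) and 6 fell (Tnr, Gpr17, Nkx2-2, C1ql1, Vcan and Sox10). Thus 81.8% of them were called, against 15.0% of all tested genes. The cultures also held markers of other cells. The summed CPM of 12 oligodendrocyte markers, led by Mbp, was between 11849 and 23593 with DMSO and between 4999 and 10438 with ZJU-37. That of 12 microglia markers, none at 0, was between 2491 and 4331 with DMSO and between 1818 and 3790 with ZJU-37. The 11 astrocyte markers summed to between 1106 and 1759 CPM with DMSO and between 981 and 1454 CPM with ZJU-37. Their part in the results was not tested.

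Of the 7 genes, all passed the filter on low counts, and 3 changed with ZJU-37 at an adjusted p-value under 0.05, against 15.0% of the 14670 tested genes. The receptor gene Pdgfra rose about 2-fold, and the ligand genes Pdgfa and Pdgfc fell. In each of these 3 genes the values of the groups stood apart without overlap, which held for 35.2% of all tested genes. The receptor gene Pdgfrb, the receptor-like gene Pdgfrl and the ligand genes Pdgfb and Pdgfd did not pass the threshold. Fewer cells of a type and less RNA per cell cannot be told apart in these bulk libraries.

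On the FPKM scale, Pdgfra was the highest member in every library. With DMSO its mean was 60.1 ± 7.26 FPKM (SD, n = 3 libraries), above 89.6% of tested genes, followed by Pdgfa with 26.4 ± 2.71 FPKM. Pdgfc (7.81 ± 0.464 FPKM) and Pdgfb (6.96 ± 1.04 FPKM) came next, and their ranges overlapped. Pdgfrb was at 1.07 ± 0.338 FPKM, below all DMSO values of Pdgfb. Pdgfrl (0.372 ± 0.156 FPKM) and Pdgfd (0.247 ± 0.0814 FPKM) were the lowest, with overlapping ranges. With ZJU-37 the mean of Pdgfb (6.39 ± 1.26 FPKM) stood above that of Pdgfc (5.57 ± 0.104 FPKM), again with overlapping ranges, and the other places in the order were the same.

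**Figure D1:**
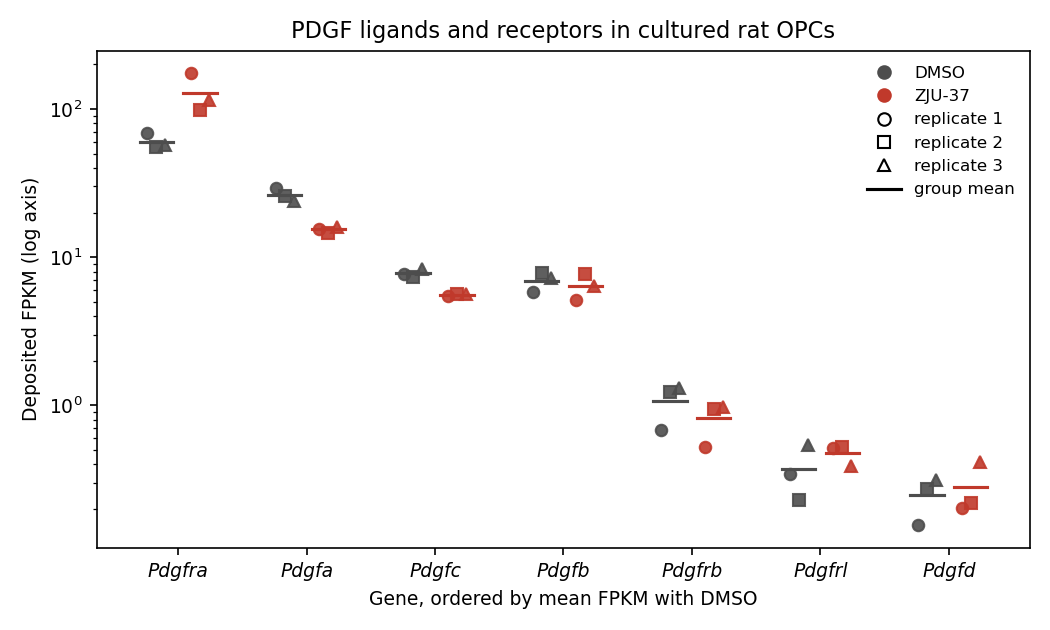
Deposited FPKM (log axis) of the 7 PDGF family genes in each library, with DMSO in grey and ZJU-37 in red, symbols for replicates and bars for group means. Pdgfra is highest in all 6 libraries, and its ZJU-37 points lie above its DMSO points, while those of Pdgfa and Pdgfc lie below.

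Pdgfra lies on chromosome 14, minus strand, at 35527927 to 35581031 in the authors' table, for which no genome build was given in the sources used here. It had 68.4, 54.9 and 57.0 FPKM in DMSO replicates 1, 2 and 3 and 174, 98.7 and 114 FPKM in ZJU-37 replicates 1, 2 and 3. All ZJU-37 libraries stood above all DMSO libraries, and ZJU-37 replicate 1 was the highest. The fitted fold was 2.14, with a 95% interval from 1.5 to 3.06 (log2 fold change 1.10 with a standard error of 0.21, adjusted p = 0.0182, quasi-likelihood test of edgeR), against 9.43% of all tested genes that passed in this direction and 19.0% of all tested genes that were higher without overlap. The call was lost without DMSO replicate 2 (adjusted p = 0.0775, edgeR) and without DMSO replicate 3 (adjusted p = 0.0693, edgeR). These fits did not use the replicate numbers. The log2 differences of the same-numbered libraries were 1.32, 0.86 and 1.02. With all libraries, the call was kept with the replicate block (adjusted p = 1.17e-04, edgeR) and in DESeq2 (adjusted p = 7.72e-06).

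Promoter sequences are shown for Pdgfra and Pdgfa, the receptor and the ligand gene that changed most in opposite directions. They come from RefSeq on build GRCr8, which matched 5 of the 7 genes (not Pdgfrb and Pdgfrl), and hold the 250 bases before the annotated start, 5′ to 3′. Capitals mark matches on either strand to the CCAAT box, to the GC box GGGCGG, to the E-box CANNTG and to the AP-1-like pattern TGANTCA. The first window is chr14:33408517-33408766 on the minus strand and the second chr12:20759116-20759365 on the plus strand.
Pdgfra: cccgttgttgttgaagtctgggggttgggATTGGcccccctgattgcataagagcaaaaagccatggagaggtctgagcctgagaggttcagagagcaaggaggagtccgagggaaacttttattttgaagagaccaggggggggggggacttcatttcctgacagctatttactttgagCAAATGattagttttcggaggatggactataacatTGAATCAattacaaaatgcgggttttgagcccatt
Pdgfa: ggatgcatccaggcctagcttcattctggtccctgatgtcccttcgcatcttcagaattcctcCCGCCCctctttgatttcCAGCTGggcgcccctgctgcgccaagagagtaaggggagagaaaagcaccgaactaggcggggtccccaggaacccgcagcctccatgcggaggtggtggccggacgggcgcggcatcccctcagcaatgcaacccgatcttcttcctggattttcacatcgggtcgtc

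The Pdgfra window held 1 CCAAT box on the other strand, 1 E-box and 1 match to TGANTCA, with A as its middle letter. These patterns occur in 34.0%, 65.5% and 6.34% of 33469 rat promoter windows of this length. Its GC content was 47.2%, against a median of 51.2%. The Pdgfa window held 1 GC box on the other strand and 1 E-box, with a GC content of 60.8%, and the GC box occurs in 30.5% of the windows. None of the motifs searched overlapped another in these windows. Neither window held the TATA box TATAAA, the EGR motif (letters GCGNGGGCG), the κB consensus of NF-κB or the CArG box of serum response factor, which 12.9%, 4.29%, 6.33% and 1.5% of the windows hold. These are matches of letters in short windows and say nothing of binding.

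Pdgfrb, the receptor for B and D chains, had 0.686, 1.23 and 1.31 FPKM in DMSO replicates 1, 2 and 3 and 0.525, 0.950 and 0.980 FPKM in ZJU-37 replicates 1, 2 and 3. The groups overlapped, and replicate 1 was the lowest in both. The log2 fold change was -0.39 (95% interval -1.18 to 0.41, adjusted p = 0.516, edgeR), and the log2 differences of the same-numbered libraries were -0.41, -0.35 and -0.40. Of the mural cell markers, 7 of 12 were under 1 CPM on average, among them the pericyte genes Rgs5, Kcnj8 and Abcc9, and the list summed to between 96.9 and 156 CPM with DMSO and between 65.0 and 130 CPM with ZJU-37. Its most abundant genes were Anpep, a peptidase that other cells also express, and Tagln, a smooth muscle actin-binding protein. Tagln fell, with means of 30.5 ± 3.07 CPM under DMSO and 15.9 ± 3.87 CPM under ZJU-37 (SD over 3 libraries, adjusted p = 0.0170, edgeR). It was the only one of the 6 tested mural markers that passed, and 0 rose. With the replicate block 2 fell and 1 rose. The latter was Myh11, with means of 3.65 CPM under DMSO and 5.87 CPM under ZJU-37 (adjusted p = 0.0104 with the block, edgeR). The 11 fibroblast markers, led by Serping1 and Col1a1, summed to between 399 and 822 CPM with DMSO and between 298 and 606 CPM with ZJU-37, and 1 of the 10 tested ones rose (Fbln1) while 0 fell, and the median log2 fold change of the list was -0.49. With the block 1 fibroblast marker rose and 5 fell. Of all tested genes, 15.0% passed in edgeR without the block and 32.1% with it. The part of mural and fibroblast markers in the Pdgfrb level was not tested.

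The balance between the receptors followed these levels. The ratio of Pdgfra to Pdgfrb in FPKM was 99.7, 44.7 and 43.7 in DMSO replicates 1, 2 and 3 and 331, 104 and 117 in ZJU-37 replicates 1, 2 and 3. Every ZJU-37 ratio was above every DMSO ratio, and replicate 1 had the largest ratio of its group in both. The mean log2 ratio was 5.86 ± 0.68 with DMSO and 7.31 ± 0.92 with ZJU-37 (SD, n = 3 libraries each), a difference of 1.46 (p = 0.1 in an exact permutation test, two-sided, and no smaller p is possible with 3 libraries against 3). Between same-numbered libraries the log2 ratio differed by 1.73, 1.22 and 1.42, in the same direction in 3 of 3 pairs. A two-sided exact sign-flip test of these pairs gave p = 0.25, its smallest possible value. Without ZJU-37 replicate 1 the difference was 0.93.

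Pdgfrl encodes a receptor-like protein without a kinase domain. It had 7, 6 and 15 counts in DMSO replicates 1, 2 and 3 and 14, 16 and 14 counts in ZJU-37 replicates 1, 2 and 3. The groups overlapped, and at this depth a change was not detectable (fold 1.26, 95% interval 0.66 to 2.40, adjusted p = 0.635, edgeR). Across the receptors, 1 of 3 genes therefore passed the test.

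**Figure D2:**
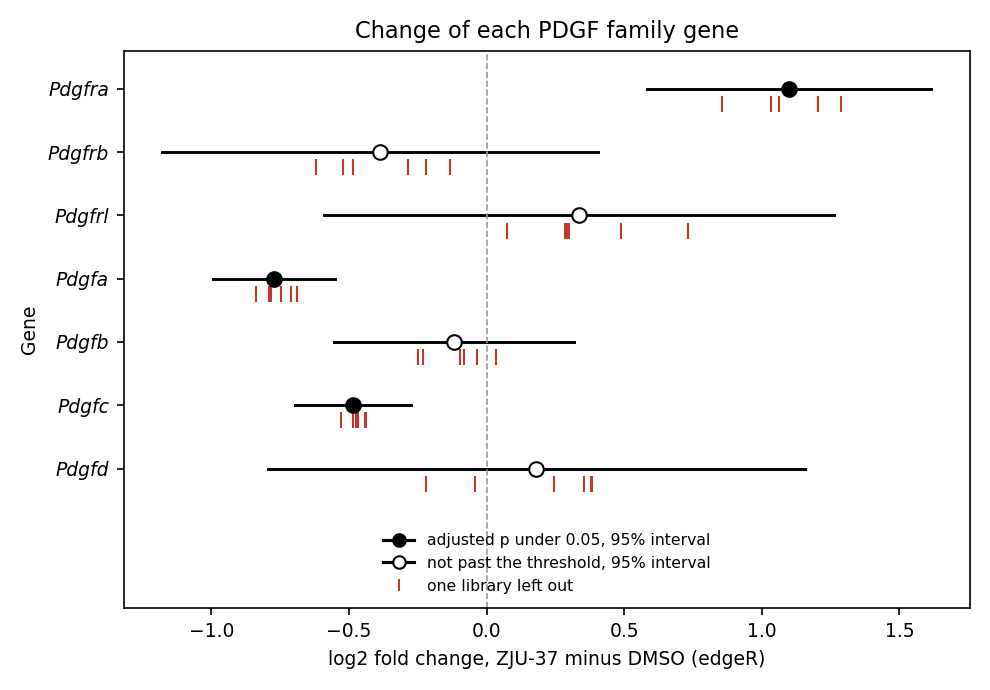
Log2 fold change of each PDGF family gene (ZJU-37 minus DMSO, edgeR) with its 95% interval, filled where the adjusted p-value was under 0.05, and red ticks for the fits that left out one library each. The intervals of Pdgfra, Pdgfa and Pdgfc lie to one side of 0, and those of the other 4 genes cross it.

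Pdgfa encodes the A chain, which as PDGF-AA acts through PDGFRα alone. The gene is on chromosome 12, plus strand, from 17734133 to 17755285 in the authors' table. It had 29.3, 25.9 and 23.9 FPKM in DMSO replicates 1, 2 and 3 and 15.4, 14.7 and 16.1 FPKM in ZJU-37 replicates 1, 2 and 3. The ZJU-37 libraries were close together and all below the DMSO libraries. The fitted fold was 0.586, with a 95% interval from 0.502 to 0.683 (log2 fold change -0.77, standard error 0.09, adjusted p = 0.00234, edgeR), and 5.58% of tested genes passed in this direction, with 16.2% lower without overlap. Unlike that of Pdgfra, the call of Pdgfa was kept in each of the 6 fits that left out one library (adjusted p from 0.00609 to 0.0127, edgeR).

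Pdgfc encodes the C chain, which is secreted with a CUB domain that must be cleaved off before it binds PDGFRα. It is on chromosome 2, plus strand, from 179952227 to 180128283. Its values were 7.75, 7.37 and 8.29 FPKM in DMSO replicates 1, 2 and 3 and 5.45, 5.63 and 5.63 FPKM in ZJU-37 replicates 1, 2 and 3. Again all ZJU-37 libraries lay below all DMSO libraries. The fold was 0.715, with a 95% interval from 0.617 to 0.827 (log2 fold change -0.48, standard error 0.09, adjusted p = 0.0130, edgeR). Without DMSO replicate 3 (adjusted p = 0.0530, edgeR) or ZJU-37 replicate 3 (adjusted p = 0.0599, edgeR) the call was lost.

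Pdgfb encodes the B chain, which binds both receptors. It had 5.80, 7.79 and 7.29 FPKM in DMSO replicates 1, 2 and 3 and 5.15, 7.67 and 6.34 FPKM in ZJU-37 replicates 1, 2 and 3. The groups overlapped, with replicate 1 lowest and replicate 2 highest in both. The fold was 0.921, and its 95% interval from 0.681 to 1.24 leaves room for a change in either direction (adjusted p = 0.725, edgeR). Pdgfd, the D chain that binds PDGFRβ, had 8, 18 and 22 counts in DMSO replicates 1, 2 and 3 and 14, 17 and 38 counts in ZJU-37 replicates 1, 2 and 3. Its groups overlapped, and its fold of 1.13 had a 95% interval from 0.577 to 2.23 (adjusted p = 0.818, edgeR). Thus 2 of the 4 ligand genes fell and 0 rose, against 5.58% and 9.43% of all tested genes.

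Pdgfa made up most of the ligand mRNA per length. The sum of the 4 ligand genes was 43.0, 41.3 and 39.8 FPKM in DMSO replicates 1, 2 and 3 and 26.3, 28.2 and 28.4 FPKM in ZJU-37 replicates 1, 2 and 3. Pdgfa accounted for between 60.1% and 68.1% of it with DMSO and for between 52% and 58.8% with ZJU-37. The share of Pdgfb was between 13.5% and 18.9% with DMSO and between 19.6% and 27.2% with ZJU-37, although its own level did not pass the test. The ratio of Pdgfra to Pdgfa in FPKM was between 2.12 and 2.38 with DMSO and between 6.73 and 11.2 with ZJU-37. The sum, the shares and this ratio were chosen after the values were seen and were not tested.

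**Figure D3:**
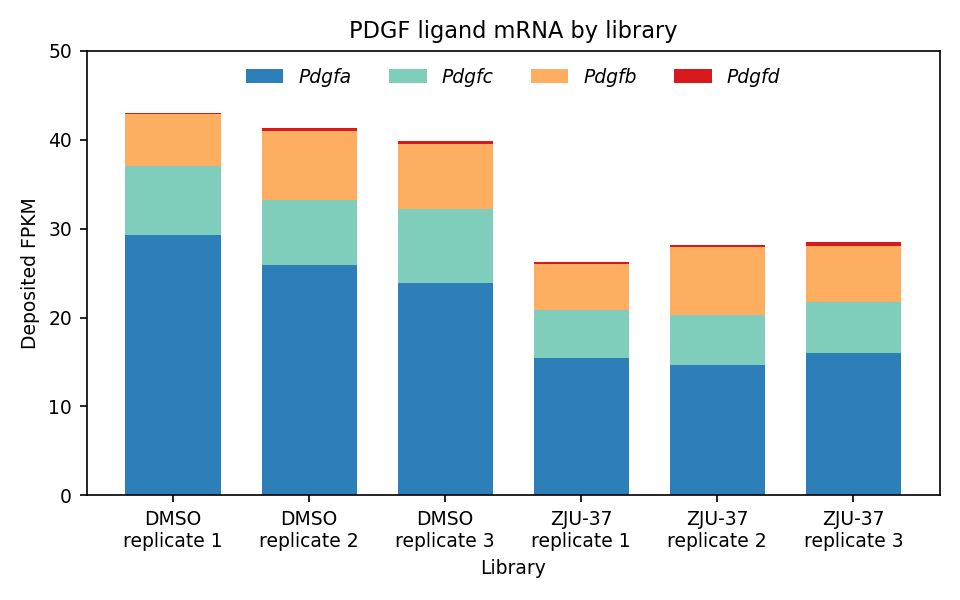
Deposited FPKM of the 4 PDGF ligand genes stacked for each library, from 0. The stacks reach 39.8 to 43.0 FPKM with DMSO and 26.3 to 28.4 FPKM with ZJU-37, and Pdgfa is the largest part of each.

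In the authors' table, Pdgfrb lies on chromosome 18 (plus strand, 56364620 to 56406381) and Pdgfrl on chromosome 16 (minus strand, 54386288 to 54450426). Pdgfb lies on chromosome 7 (minus strand, 121214628 to 121232741) and Pdgfd on chromosome 8 (plus strand, 4440876 to 4669014). The spans of Pdgfrb, Pdgfa and Pdgfb overlap no other gene of the table. That of Pdgfra overlaps a gene with 6 counts in all libraries together, and those of Pdgfrl, Pdgfc and Pdgfd overlap genes with 0 counts.

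Genes that act around the PDGF receptors were described by lists written from textbook knowledge. Of 15 genes that cleave or bind PDGF chains, 2 rose and 0 fell (13.3% called, against 15.0% of all genes; median log2 fold change -0.16, against -0.03 over all tested genes), and with the replicate block 2 rose and 3 fell (Pcsk6, Sparc and Thbs1), against 16.2% and 15.9% of all tested genes. Cspg4, which encodes NG2, a proteoglycan of OPCs that binds PDGF-AA, rose, with means of 166 ± 12.1 CPM under DMSO and 341 ± 63.0 CPM under ZJU-37 (SD over 3 libraries, adjusted p = 0.00396, edgeR). Itgav, the integrin αV subunit, rose from 103 ± 5.27 CPM to 156 ± 10.0 CPM (adjusted p = 0.00242, edgeR). Among the proteases, Pcsk6, a proprotein convertase, had 52.6 CPM with DMSO and 34.8 CPM with ZJU-37 on average, and its call depended on the fit (adjusted p = 0.0707 in edgeR, 0.00175 with the block and 0.0148 in DESeq2). The other proteases did not pass in any of these fits. The mean CPM with DMSO and with ZJU-37 was 80.1 and 71.7 for Furin, which cleaves the A and B chains, 42.5 and 49.9 for Plat, which cleaves the C chain, and 32.5 and 28.8 for Plau, which cleaves the D chain.

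Below the receptors, 65 tested genes fell into lists of adaptors and effectors, of RAS, ERK and AKT kinases, and of attenuators, and 4 of them rose and 4 fell (12.3% called, median log2 fold change 0.02). With the replicate number as a block, 23 passed, 10 higher and 13 lower, against 32.1% of all genes. Among 27 adaptors and effectors 3 rose and 2 fell (18.5% called, against 15.0% of all tested genes, and 7 and 6 with the block). Of the Src family kinases in the list, Src rose, Fyn fell and Yes1 did not pass (log2 fold change 0.18, adjusted p = 0.316, edgeR). Src measured 167, 175 and 179 CPM in the DMSO libraries (1 to 3) and 324, 319 and 341 CPM in the ZJU-37 libraries (1 to 3) (log2 fold change 0.92, adjusted p = 3.61e-04, edgeR). Fyn, which also acts in oligodendrocyte differentiation, measured 1135, 1002 and 940 CPM in the DMSO libraries (1 to 3) and 546, 474 and 472 CPM in the ZJU-37 libraries (1 to 3) (log2 fold change -1.04, adjusted p = 0.00102, edgeR). In both genes the groups stood apart without overlap. The adaptor gene Nck2 and the exchange factor gene Vav3 rose, with log2 fold changes of 0.73 and 0.52, and the adaptor gene Shb fell with one of -0.63.

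Among 19 RAS, ERK and AKT kinase genes 1 rose and 2 fell (15.8% called, median -0.08, and 2 and 4 with the block). Prkca, a protein kinase C gene, and Mapk3, which encodes ERK1, fell with log2 fold changes of -0.73 and -0.55. Of 19 tested attenuators, such as ubiquitin ligases and phosphatases, 0 passed in edgeR without the block, 1 passed in DESeq2, and 1 rose and 3 fell with the block, and their log2 fold changes ran from -0.41 to 0.53. In contrast, 15 of 25 early target genes of growth factor signalling rose and 0 fell (60.0% called, against 15.0% of all tested genes, median 0.77). They were led by the EGR transcription factor genes Egr2 and Egr1, with log2 fold changes of 2.14 and 2.11, and the feedback inhibitor genes Spry4 and Spry1, with 1.59 and 1.57. These genes respond to many receptors besides those of PDGF.

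**Figure D4:**
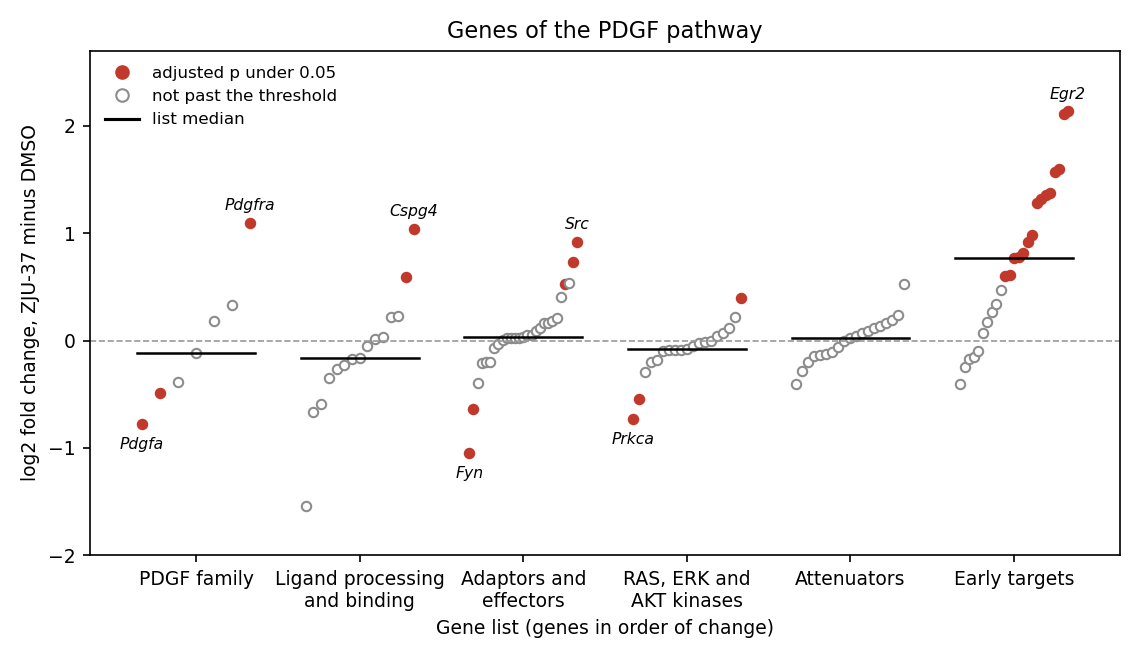
Log2 fold change (ZJU-37 minus DMSO, edgeR) of every tested gene in 6 lists, red where the adjusted p-value was under 0.05, with a bar at each list's median. In the early target list 15 of 25 genes are red and above 0, while the medians of the adaptor, kinase and attenuator lists lie between -0.08 and 0.03.

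Of 20 tested transcription factor genes that act in OPCs or are linked to Pdgfra or NF-κB, 3 rose and 4 fell (35.0% called, median -0.22). With the block 4 rose and 7 fell. Of all tested genes, 15.0% passed without the block and 32.1% with it. Sox11 and Olig1, factors of early lineage cells, rose with log2 fold changes of 0.96 and 0.64. Nkx2-2, a repressor of Pdgfra at the start of differentiation, fell, with means of 194 ± 7.73 CPM under DMSO and 58.2 ± 8.66 CPM under ZJU-37 (SD over 3 libraries, log2 fold change -1.74, adjusted p = 3.20e-04, edgeR). The differentiation factors Myrf and Zfp488 fell with -1.69 and -1.45, and Sox10 fell with -0.61. The 5 NF-κB subunit genes had log2 fold changes from -0.37 to 0.02, and 0 passed in edgeR without the block (with it, Relb fell, adjusted p = 0.0402). Of the 12 oligodendrocyte markers 2 fell (Myrf and Cnp) and 0 rose (16.7% called, against 15.0% of all tested genes). With the block 7 fell. Mbp had 8108 ± 3128 CPM with DMSO and 3963 ± 1514 CPM with ZJU-37 (SD, n = 3 libraries each, adjusted p = 0.136, edgeR). The part of oligodendrocyte content in the PDGF results was not tested.

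Genes next to Pdgfra were also compared. Of 8 tested neighbours 2 rose and 0 fell, against 9.43% and 5.58% of all tested genes. Both lie before the start of Pdgfra. With the block 3 rose (Gsx2 in addition) and 1 fell (Tmem165, adjusted p = 0.0458, edgeR), against 16.2% and 15.9% of all tested genes. The start of Lnx1, a ubiquitin ligase gene, is 466 kb away, and it rose, with means of 42.2 ± 3.87 CPM under DMSO and 72.6 ± 10.7 CPM under ZJU-37 (SD over 3 libraries, adjusted p = 0.00664, edgeR). Fip1l1, an mRNA processing gene at 627 kb, rose from 109 ± 4.32 CPM to 179 ± 10.7 CPM (adjusted p = 8.90e-04, edgeR). In edgeR without the block, the nearest neighbours did not pass. Gsx2, at 71.7 kb, stood at 1.0 on the log2 scale (adjusted p = 0.0814 in edgeR, 0.0152 with the block and 0.0299 in DESeq2), and Chic2, at 102 kb, had -0.10 (0.659, edgeR). On the other side, the receptor kinase gene Kit stood at 0.22 (adjusted p = 0.642, edgeR). Kdr was too low to be tested, and Srd5a3, Tmem165 and Clock had log2 fold changes of -0.08, -0.24 and 0.04.

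**Figure D5:**
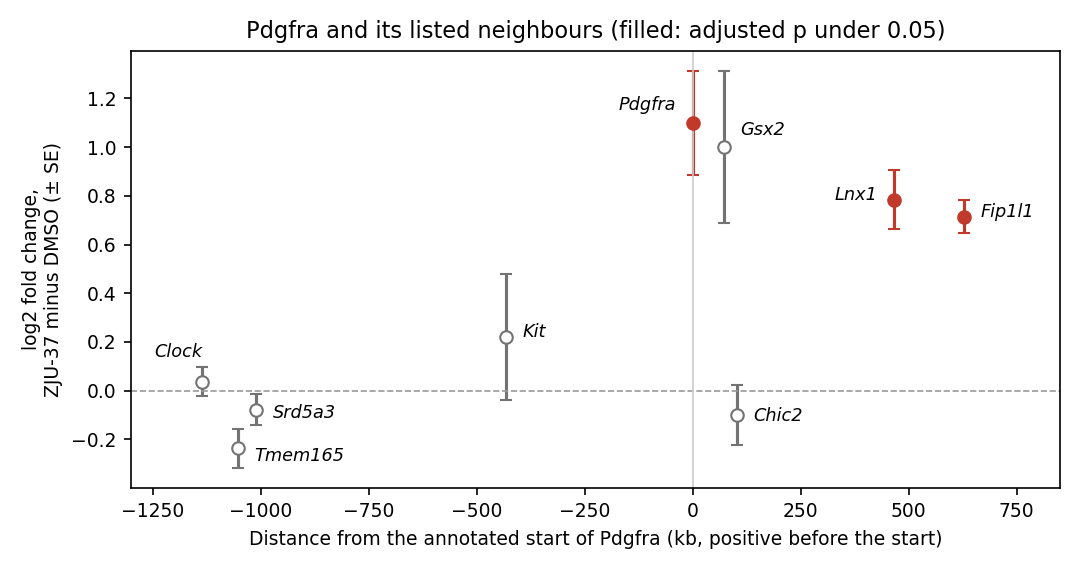
Log2 fold change (edgeR, bars are standard errors) of Pdgfra and 8 tested neighbours against the distance in kb between annotated starts, positive before the start of Pdgfra, filled where the adjusted p-value was under 0.05. Lnx1 and Fip1l1 are filled on the positive side, while Kit, Srd5a3, Tmem165 and Clock on the negative side are open.

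Among relatives of the PDGF receptors, Kit, Csf1r and Flt1 were tested and 0 passed in edgeR or DESeq2. Csf1r, a microglial receptor gene, had an adjusted p of 0.532 in edgeR and of 0.00167 with the block. Of 8 tested related ligands 1 fell and 0 rose (12.5% called, against 15.0% of all tested genes). With the block 2 fell and 2 rose, against 15.9% and 16.2% of all tested genes. Vegfa, a growth factor of the same structural family, measured 218, 172 and 190 CPM in the DMSO libraries (1 to 3) and 121, 130 and 139 CPM in the ZJU-37 libraries (1 to 3) (log2 fold change -0.57, adjusted p = 0.0111, edgeR). All its ZJU-37 libraries were below its DMSO libraries.

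Across the 6 libraries, the genes whose log2 CPM was most like that of Pdgfra among 10301 genes with at least 10 CPM were Cenpc, Cstf2, Kdm1a, Pkia and Mmd, with Pearson's r between 0.996 and 0.999. For Pdgfa they were AABR07043951.1, Chst2, Gid4, Rps6ka5 and Limd1, with r between 0.995 and 0.999. All points share the same 6 libraries and the difference between the groups, and the values are a description only.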

How the data were processed

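Raw counts per gene of 6 libraries, made with featureCounts 1.5.0, were deposited by the authors, with FPKM values that they made from the counts and gene length. The submitters' processing notes also name HISAT2 2.0.5 and StringTie 1.3.3b. The kit does not mark strand. The 5 columns of the authors' own comparison (group means, fold change, p-values) were not used. Counts were filtered with filterByExpr, normalized by TMM and tested with edgeR 4.0.16 (glmQLFit, robust, glmQLFTest, R 4.3.3) over all 6 libraries, with Benjamini-Hochberg adjustment over 14670 genes and a threshold of 0.05. Fold changes, standard errors and 95% intervals come from this fit. Steps were tested on simulated data.

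The alternatives were DESeq2 1.42.0, limma-voom and limma 3.58.1 on log2(FPKM + 1) and log2(FPKM + 0.1), RLE or no normalization factors, other filters, thinning, the replicate block and leaving out each library. The paired test of the receptor ratio was added after the data were seen. Same-numbered libraries of the groups deviated together from their group means (r = 0.39, 0.31 and 0.33 across genes), so the numbers in the labels were taken to pair them. Library pairs within a group differed by at least 11.8 chi-square units per degree of freedom, so none was treated as a duplicate.

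The members and gene lists were chosen with earlier results of these data known. Text names all members, up to 4 called genes per list and direction with at least 1 CPM, the 2 most abundant genes per marker list, the Pdgfra neighbours and the 5 most alike genes. Furin, Plat, Plau, Pcsk6, Sparc, Thbs1, Yes1, Relb, Flt1, Myh11, Aqp4, Sox9 and Aldoc were named after their values were seen. So were the remaining OPC and fibroblast markers. Some genes that the rule names are not reported here.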

Additional observations from a re-analysis of the deposited data

How the results depend on the processing

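Of the 7 genes, 3 passed in each of the 10 alternatives that kept all libraries and between 1 and 3 when 1 library was left out, with 1, Pdgfa, without DMSO replicate 3. The call of Pdgfa was kept in all 16 alternatives. The log2 fold change of Pdgfra ran from 0.86 to 1.29 and that of Pdgfc from -0.53 to -0.44 across the fits without one library, in which each lost its call in 2 fits. Pdgfrb stayed between -0.62 and -0.13 in these fits and passed in none of the alternatives. Genes that never passed changed sign in places. Pdgfb ran from -0.25 to 0.034, the latter without ZJU-37 replicate 1, and Pdgfd from -0.22 to 0.38 when 1 library was left out, and Pdgfd was -0.11 in libraries thinned to the smallest total. Pdgfrl gave no value under 2 alternatives and Pdgfd under 1. The difference in the log2 ratio of Pdgfra to Pdgfrb ran from 0.93 to 1.85.

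With the replicate block, which uses the pairing, 4705 genes passed in place of 2201, and 23 of the signalling genes below the receptors in place of 8. It changed no call of the 7 genes, with adjusted p-values of 1.17e-04 for Pdgfra, 8.02e-05 for Pdgfa, 0.00337 for Pdgfc and 0.0820 for Pdgfrb in edgeR. Across the fits without one library, between 1306 and 1927 genes passed. Depth limits Pdgfrl and Pdgfd, which had at most 38 counts in a library.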

Other observations

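The values in this part were chosen after the data were seen. Of 13 tested genes whose annotated start lies within 1500 kb of that of Pdgfra, 4 rose with ZJU-37 and 0 fell, against 9.43% and 5.58% of all tested genes. Besides Lnx1 and Fip1l1 these were Scfd2 and Cep135. Scfd2, whose start lies 635 kb before that of Pdgfra beside Fip1l1, measured 22.4, 21.7 and 19.8 CPM in the DMSO libraries (1 to 3) and 57.7, 61.7 and 58.5 CPM in the ZJU-37 libraries (1 to 3). Its groups stood apart with little spread, and its log2 fold change of 1.48 was larger than the 1.10 of Pdgfra (standard error 0.07, adjusted p = 2.25e-04, edgeR), a difference that was not tested. Nearer to Pdgfra, Chic2 had a log2 fold change of -0.10, and beyond Scfd2 the genes Rasl11b and Usp46 had -0.11 and -0.01, with adjusted p-values of 0.699 and 0.958 in edgeR. The rise of Scfd2 was thus not shared by all genes of the region.

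For the marker counts that follow, 15.0% of all tested genes passed in edgeR without the block and 32.1% with it. Endothelial and neuronal markers were low or did not pass. Of 9 endothelial markers found, Cldn5 and Emcn were at 0 counts, the list summed to between 18.3 and 22.0 CPM with DMSO and between 14.1 and 20.6 CPM with ZJU-37, and 0 of 6 tested genes passed (1 fell with the block, 0 passed in DESeq2). Its most abundant genes, Cdh5 and Tek, had 14.2 and 1.47 CPM with DMSO. The 10 neuronal markers, led by Tubb3 and Stmn2, summed to between 354 and 541 CPM with DMSO and between 313 and 432 CPM with ZJU-37, and 0 passed (4 fell with the block, 1 passed in DESeq2). Of 10 tested astrocyte markers, led by Slc1a3 and Gfap, Sox9 rose and Aldoc fell, with a median log2 fold change of -0.26. With the block 2 rose and 5 fell, among them Gfap and Aqp4. Of 12 microglia markers, led by Csf1r and C1qa, 0 passed in edgeR without the block or in DESeq2, and with the block 0 rose and 6 fell.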
